A study of Arabidopsis thaliana with 9 samples.

Results

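The output of the jasmonate pathway was followed in 8 genes across wild type, cyp78a5,7 and amp1-13 seedlings, namely MYC2, MYC3, MYC4, TAT3, CLH1 and CORI3 of the MYC branch, and ORA59 and PDF1.2A of the ERF branch. Each was represented by 1 probe set, so the 8 genes are 8 of the 22746 probe sets tested. MYC3, MYC4 and PDF1.2A were identified through the annotation of the array. The other 5 (MYC2, TAT3, CLH1, CORI3 and ORA59) could be identified only through the study's list of genes that were selected on their change in cyp78a5,7 against wild type, and the whole set was chosen by earlier results of these arrays. In that comparison their values, standard errors and calls therefore only describe how they were chosen, and no p is given for them. The paper describes the list as covering genes changed in cyp78a5,7 and in amp1-13. Whether these 5 genes were also listed for amp1-13 was not examined, so their p-values in amp1-13 may not be independent of the selection.

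RNA came from 10-day-old whole seedlings of the ecotype Col-0, with 3 biological replicates of each genotype on 9 Affymetrix ATH1 arrays in all. The 3 genotypes were wild type, the cyp78a5,7 double mutant, in which the cytochrome P450 genes CYP78A5 and CYP78A7 are both mutated, and amp1-13, an allele of AMP1, which encodes a putative carboxypeptidase. All seedlings, wild type included, were grown in liquid Murashige and Skoog medium with sucrose and DMSO under long days. How many seedlings made up a replicate, and whether the arrays of the 3 genotypes were run together, is not given in the sources used here. Both mutants make an enlarged shoot meristem and extra leaves, so the comparisons were made between seedlings of different build. Levels are array signals on the deposited linear scale, in which each array has a trimmed mean of about 100, and they are compared only within a gene, because probe sets differ in how brightly they bind. Fold changes are given as log2 values after an offset of 16 and quantile normalization, with limma's standard error and Benjamini-Hochberg adjusted p over all probe sets. A gene counts as called where that p was under 0.05 and the change reached 2-fold.

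The conjugated form of jasmonic acid binds the receptor COI1, which leads to the destruction of the JAZ repressor proteins. JAZ proteins hold MYC2 and its close relatives MYC3 and MYC4 inactive, and these bHLH transcription factors, once released, activate wound and insect response genes such as TAT3, CLH1 and CORI3. The same hormone acts together with ethylene, through EIN3 and AP2/ERF factors such as ORA59 and ERF1, on genes against necrotrophic fungi such as the defensin PDF1.2A. In Arabidopsis the MYC and ERF branches are known to restrain each other.

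In cyp78a5,7 seedlings the MYC2, TAT3, CLH1 and CORI3 signals were all higher than in wild type and ORA59 was lower, which is how these 5 genes were selected. MYC3 had nearly the same level in all genotypes, and MYC4 was lower in cyp78a5,7 by less than 2-fold. In amp1-13, ORA59 was the only one of the 8 genes called against wild type (lower), while MYC2 lay above wild type on every array without passing the test. Between the mutants, TAT3 and CLH1 were higher and ORA59 lower in cyp78a5,7. PDF1.2A was dim on 8 of the 9 arrays, and its wild type mean rested on 1 array.

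**Figure D1:**
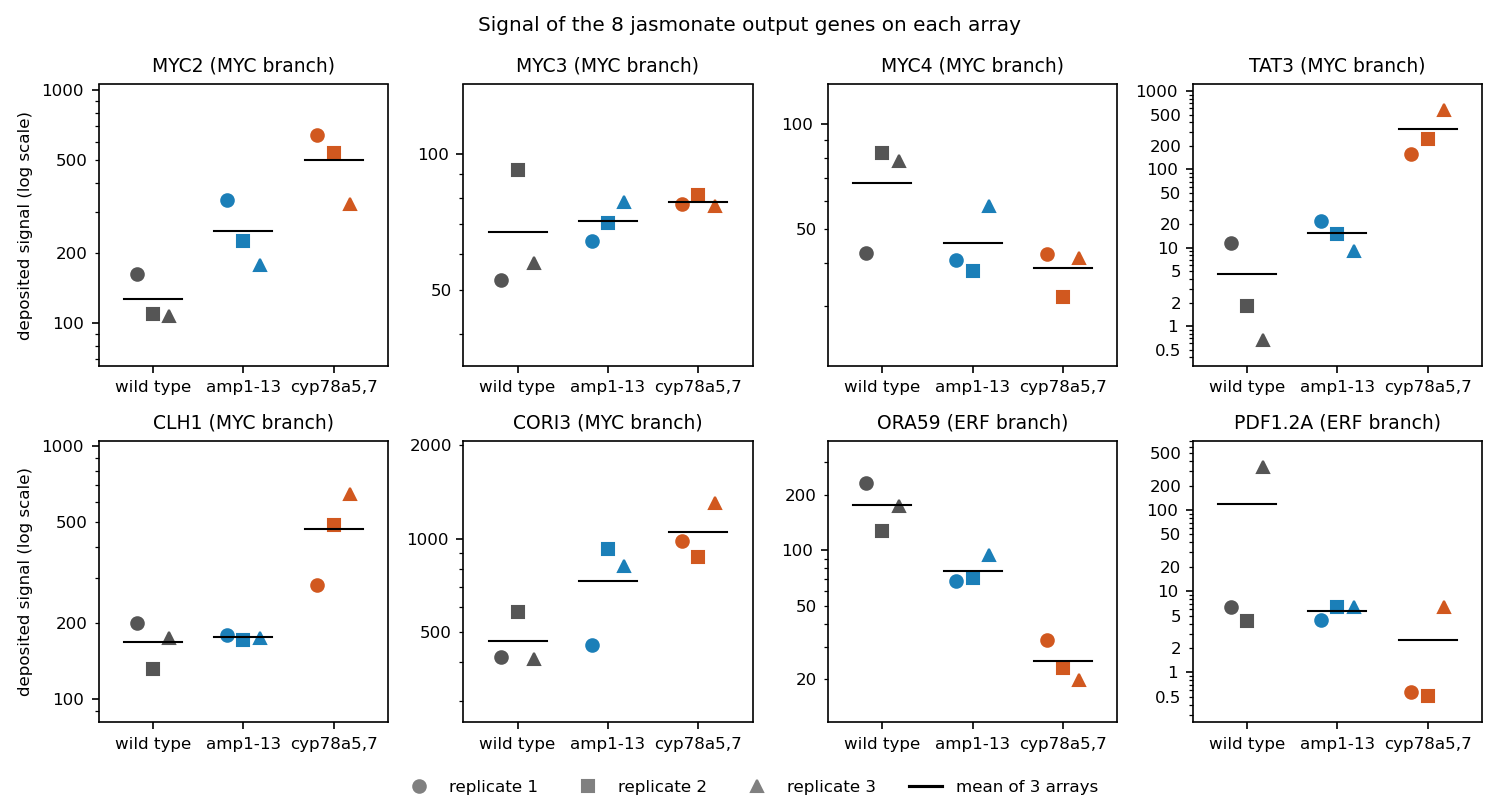
Deposited signal (array units, log axis) of the 8 genes on each of the 9 arrays, with a symbol for each replicate number and a line at the mean of each genotype. The cyp78a5,7 arrays lie apart from wild type for MYC2, TAT3, CLH1, CORI3 and ORA59, and PDF1.2A has a single bright array, wild type replicate 3 at 343.

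MYC2, the bHLH factor at the head of the branch, had signals of 163, 109.9 and 108 in wild type replicates 1 to 3. The cyp78a5,7 replicates read 644, 535 and 324, and the amp1-13 replicates 339, 226 and 178. The mutant arrays lay above every wild type array, and the lowest cyp78a5,7 array lay just below the highest amp1-13 array. The mean was 501 ± 163 for cyp78a5,7, 247 ± 82.6 for amp1-13 and 127 ± 31.2 for wild type (SD, n = 3). The log2 fold change of cyp78a5,7 over wild type was 1.80 (SE 0.30). For amp1-13 over wild type it was 0.84 (95% interval 0.15 to 1.53, adjusted p = 0.110), and for cyp78a5,7 over amp1-13 it was 0.96 (95% interval 0.28 to 1.65, adjusted p = 0.0785). Neither of these differences passed the test, although in the first the arrays did not overlap. RNA was taken from whole seedlings, so a larger share of cells that express a gene and more of its RNA per cell cannot be told apart, here and for the genes that follow.

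MYC3, which shares targets with MYC2, read 52.7, 92.0 and 57.5 in wild type, 64.2, 70.5 and 78.1 in amp1-13 and 77.3, 81.0 and 76.9 in cyp78a5,7. All 3 genotypes overlapped, and the wild type arrays had the widest range. The log2 fold change was 0.17 for cyp78a5,7 over wild type (SE 0.13, adjusted p = 0.414). The 95% interval, -0.13 to 0.46, held no change as large as 2-fold. Against wild type, amp1-13 differed by -0.0043 (95% interval -0.30 to 0.29, adjusted p = 0.991), and the mutants differed from each other by 0.17 (95% interval -0.12 to 0.47, adjusted p = 0.498).

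MYC4, the third factor of the group, went in the other direction. Its signals were 42.6, 82.6 and 78.3 in wild type, 40.8, 37.9 and 58.1 in amp1-13, and 42.4, 31.9 and 41.3 in cyp78a5,7. The highest cyp78a5,7 array stood barely below the lowest wild type array, and the amp1-13 arrays overlapped both. MYC4 was lower in cyp78a5,7 by a log2 fold change of -0.62 (SE 0.19, 95% interval -1.05 to -0.20, adjusted p = 0.0420), which passed the p threshold and fell short of 2-fold. The adjusted p was over 0.05 in 11 of 17 alternatives (0.0165 to 0.142 over all of them), among them the values as deposited, both other offsets and the fits without wild type replicate 2 or 3 or any 1 of the cyp78a5,7 replicates. In amp1-13 the difference from wild type was -0.52 (95% interval -0.95 to -0.09, adjusted p = 0.109), and the mutants differed by -0.10 (95% interval -0.53 to 0.32, adjusted p = 0.827).

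TAT3 encodes a tyrosine aminotransferase that jasmonate and wounding induce. It was near the bottom of the scale in wild type, at 11.5, 1.81 and 0.658, and in amp1-13 it read 22.2, 15.0 and 8.95. In cyp78a5,7 it reached 156, 242 and 576. Every cyp78a5,7 array was far above the arrays of both other genotypes, which overlapped each other. TAT3 had the widest log2 difference of the 8 genes in cyp78a5,7 over wild type, 3.85 (SE 0.41). Because the wild type level was below the offset, this size depended on it, with 6.88 for no offset and 2.34 for an offset of 64. Over amp1-13, TAT3 was higher in cyp78a5,7 by 3.29 (95% interval 2.34 to 4.23, adjusted p = 0.00268), a call that ended with no offset (4.33, adjusted p = 0.0536). The difference of amp1-13 from wild type was 0.56 (95% interval -0.38 to 1.51, adjusted p = 0.437), and this interval holds both no change and a change of over 2-fold.

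CLH1, a chlorophyllase gene induced by jasmonate and by its bacterial mimic coronatine, read 199, 132 and 174 in wild type. The amp1-13 signals were 179.9, 172 and 174, and the cyp78a5,7 signals were 282, 488 and 648. Wild type and amp1-13 overlapped fully, and the cyp78a5,7 arrays were above both. The log2 fold change was 1.32 for cyp78a5,7 over wild type (SE 0.27) and 1.27 for cyp78a5,7 over amp1-13 (95% interval 0.66 to 1.89, adjusted p = 0.0195). The second call was lost with no offset and when cyp78a5,7 replicate 2 or any 1 of the amp1-13 replicates was left out, with values of 1.01 to 1.59 over all the fits that left out an array. In amp1-13 over wild type the difference was 0.05 (95% interval -0.56 to 0.67, adjusted p = 0.941).

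CORI3, a cystine lyase gene also induced by coronatine, was bright throughout. Its signals were 416, 579 and 408 in wild type, 455, 923 and 815 in amp1-13 and 979, 875 and 1300.4 in cyp78a5,7. The amp1-13 arrays overlapped the arrays of both other genotypes, which did not overlap each other. The log2 fold change was 1.17 for cyp78a5,7 over wild type (SE 0.28), the value just inside the 2-fold limit, as MYC4 at -0.62 was the one just outside it among the genes with an adjusted p under 0.05. In amp1-13 it was 0.61 over wild type (95% interval -0.03 to 1.25, adjusted p = 0.198), and the mutants differed by 0.56 (95% interval -0.08 to 1.2, adjusted p = 0.262).

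ORA59, the AP2/ERF factor that joins the jasmonate and ethylene signals, was the only one of the 8 genes whose 3 genotypes were fully separated. How many of all probe sets separate in this way was not counted, and ORA59 was itself selected on its change in cyp78a5,7. Wild type gave 232, 127 and 173, amp1-13 gave 68.3, 70.7 and 94.3, and cyp78a5,7 gave 32.8, 23.2 and 20.0. Means were 177 ± 52.5, 77.7 ± 14.4 and 25.3 ± 6.66 (SD, n = 3). The log2 fold change was -2.19 for cyp78a5,7 over wild type (SE 0.21). In amp1-13, ORA59 was lower than wild type by -1.06 (SE 0.21, 95% interval -1.55 to -0.58, adjusted p = 0.0178). It was lower in cyp78a5,7 than in amp1-13 by -1.13 (95% interval -1.61 to -0.64, adjusted p = 0.0125), a call that ended with an offset of 64 (-0.63) and without amp1-13 replicate 3 (adjusted p = 0.0520). The amp1-13 value stood close to the 2-fold limit, and it was -1.22 (adjusted p = 0.0570) with no offset and -0.78 with an offset of 64. The call ended without wild type replicate 1 (-0.85) or 3 (-1.05), and likewise without amp1-13 replicate 1 (-1.0) or 2 (-1.01).

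PDF1.2A, the defensin gene most often used as the readout of the ERF branch, read 6.31, 4.29 and 343 in wild type. In cyp78a5,7 it read 0.569, 0.511 and 6.37, and in amp1-13 4.38, 6.35 and 6.38. Wild type replicate 3 was thus the only array with a signal above the offset, and it was 80.1 times the lowest wild type array. The genotypes overlapped. The log2 fold change was -1.56 for cyp78a5,7 over wild type (SE 0.93, 95% interval -3.69 to 0.56, adjusted p = 0.277) and -1.35 for amp1-13 over wild type (adjusted p = 0.403). Without wild type replicate 3 these values were -0.20 (adjusted p = 0.488) and 0.0074 (adjusted p = 0.991). The mutants differed by -0.21 (adjusted p = 0.945). The probe set of the nearly identical gene PDF1.2B had the same single bright array, with 7.98, 0.965 and 499 in wild type and at most 10.9 in the mutants, and the array does not separate transcripts of such close copies. A search made after these values were seen, for signals of at least 100 that were at least 10 times those of the other arrays of the genotype, found exactly these 2 probe sets on wild type replicate 3 and 0 on each of the other arrays. A level of PDF1.2A in wild type can therefore be given only array by array.

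**Figure D2:**
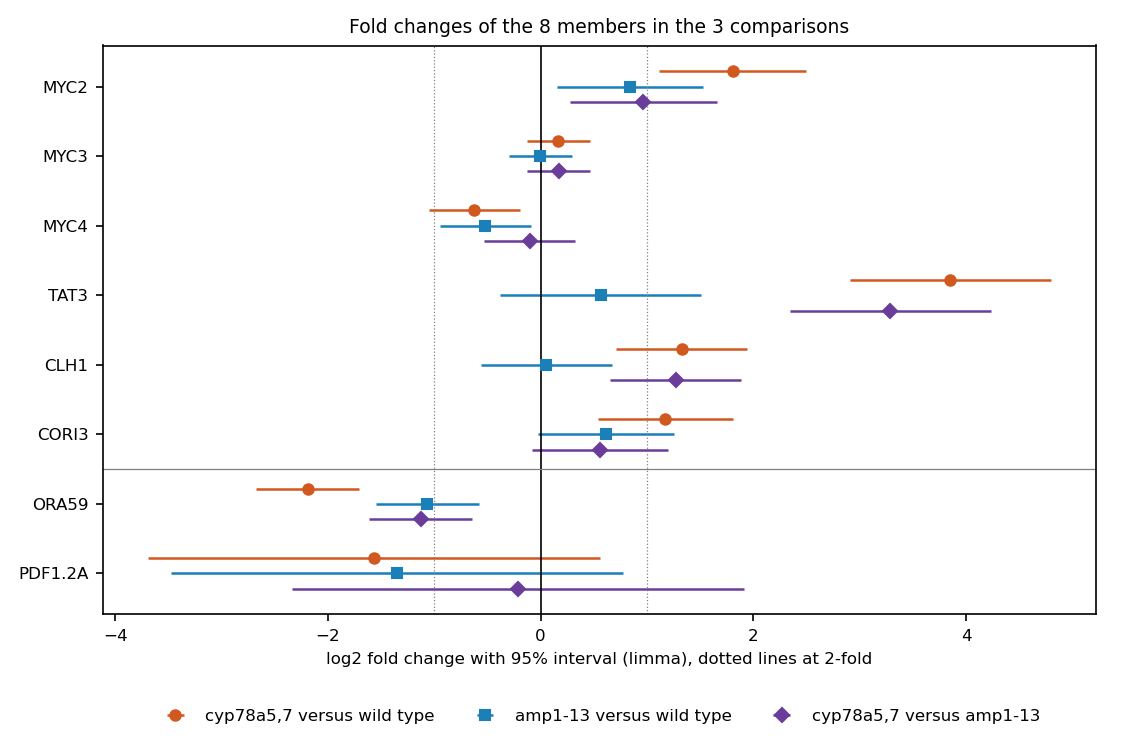
Log2 fold change (points) with its 95% interval (lines) of the 8 genes in the 3 comparisons, where the 5 selected genes are only described in cyp78a5,7 over wild type, with dotted lines at 2-fold in either direction. TAT3 at 3.85 and ORA59 at -2.19 lie farthest from 0 in cyp78a5,7 over wild type, and the interval of PDF1.2A, -3.69 to 0.56, is the widest in that comparison.

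Counted over the 8 genes, 4 were called higher (MYC2, TAT3, CLH1 and CORI3) and 1 lower (ORA59) in cyp78a5,7 against wild type, where 4.37% and 2.64% of all probe sets were called higher and lower. These 5 are the genes taken from the selected list, so nothing is read from the count. In amp1-13 against wild type, 0 were called higher and 1 lower (ORA59), where 1.80% and 0.796% of all probe sets were. Of the 6 genes of the MYC branch, limma called 0 in that comparison, and 2 (MYC2 and MYC4) had an unadjusted p under 0.05, in opposite directions, beside 27.5% of all probe sets. In cyp78a5,7 against amp1-13, 2 were called higher (TAT3 and CLH1) and 1 lower (ORA59), against 2.15% and 1.76% of all probe sets. The comparisons share arrays: the wild type arrays behind the amp1-13 values and the cyp78a5,7 arrays behind the comparison of the mutants both took part in the selection of the 5 genes. The counts of those genes in these comparisons are therefore not independent of the selection.

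Taking the arrays without a model, 4 of the genes had all cyp78a5,7 signals above all wild type signals and 2 (MYC4 and ORA59) had all below, where 14.0% and 19.8% of all probe sets did so. For amp1-13 against wild type there was 1 gene entirely above (MYC2) and 1 entirely below (ORA59), where the shares of all probe sets were 15.5% and 15.3%. For cyp78a5,7 against amp1-13, 2 genes lay above (TAT3 and CLH1) and 1 below (ORA59), with shares of 12.6% and 17.6%. At 1 of 8 genes in each direction, the numbers for amp1-13 against wild type are near these shares. The median log2 fold change of the 6 MYC branch genes was 1.25 in cyp78a5,7 and 0.31 in amp1-13 over wild type, and that of the 2 ERF branch genes was -1.88 and -1.21, beside -0.02 and -0.01 over all probe sets. The ERF branch medians include PDF1.2A with its 1 bright wild type array. In cyp78a5,7 against wild type, these counts and medians include the 5 genes taken from the selected list, so nothing is read from them. In the other comparisons the counts and medians share arrays with that selection.

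The order of the genotypes by mean signal was wild type, amp1-13, cyp78a5,7 from low to high for MYC2, MYC3, TAT3, CLH1 and CORI3. It was the reverse for MYC4, ORA59 and PDF1.2A, so the mean of amp1-13 was between the others on this scale. In the normalized fit MYC3 was level with wild type in amp1-13 (-0.0043), and for PDF1.2A the order rested on wild type replicate 3. Neighbours in this order were distinct on every array only for wild type and amp1-13 in MYC2, for amp1-13 and cyp78a5,7 in TAT3 and CLH1, and for both steps in ORA59. In MYC3 and PDF1.2A no pair of genotypes was distinct.

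Replicates of a genotype did not rank the genes alike. In cyp78a5,7, replicate 3 had the lowest MYC2 signal (324) and the highest TAT3, CLH1 and CORI3 signals (576, 648 and 1300.4). MYC2 was highest on the array numbered 1 in every genotype. After the genotype means were removed, TAT3 and CLH1 varied together with a Pearson correlation of 0.86 over the 9 arrays, MYC2 and TAT3 with -0.24 and MYC2 and CORI3 with -0.74. Before that step the same pairs had correlations of 0.96, 0.78 and 0.56, which carry the difference between the genotypes. All are descriptions over 9 arrays that share each array's scaling.

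**Figure D3:**
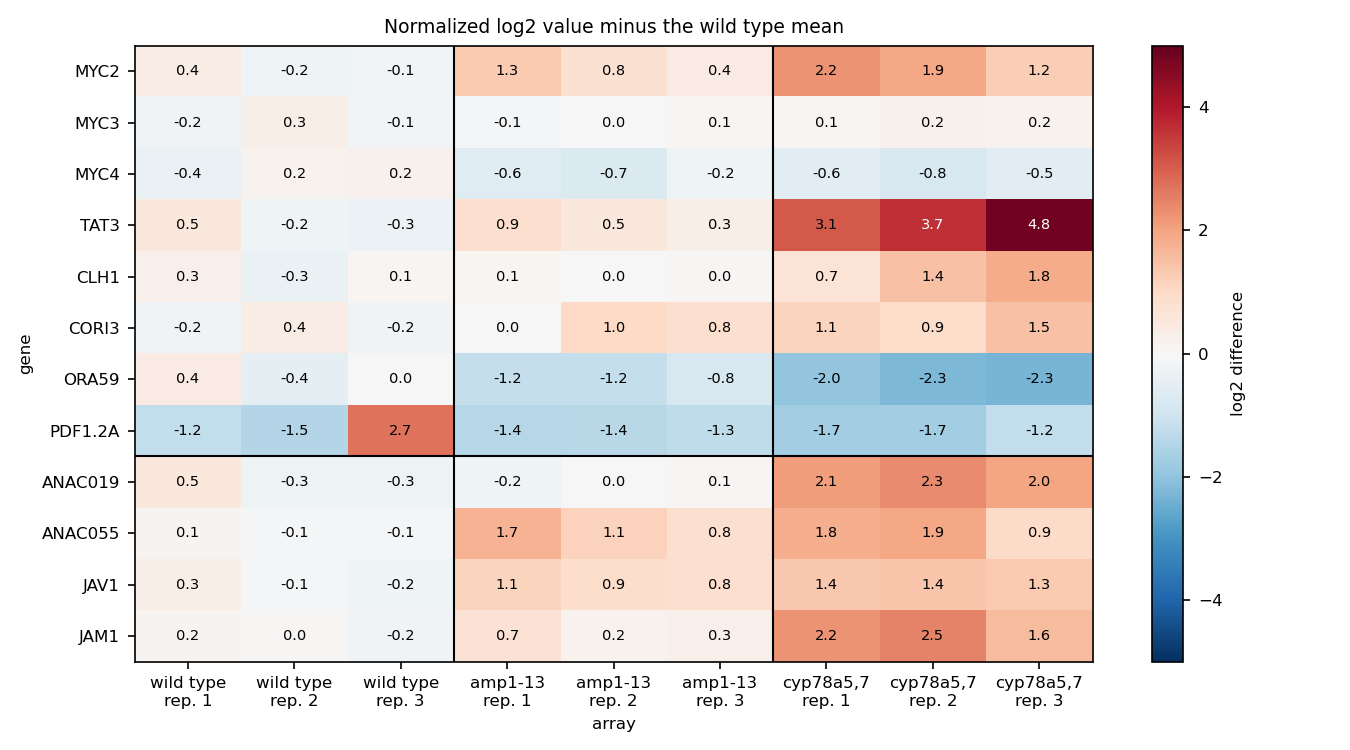
Heat map of normalized log2 signal minus the wild type mean for the 8 genes and for ANAC019, ANAC055, JAV1 and JAM1 (rows) on each of the 9 arrays (columns). The 3 cyp78a5,7 columns are high for MYC2, TAT3, CLH1 and CORI3 and low for ORA59, and wild type replicate 3 stands out in the PDF1.2A row.

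Further genes of the pathway were taken from 4 lists of 48 genes, and for 16 a probe set could be named, in 8 cases through the selected list. In cyp78a5,7 against wild type the values of those 8 again only describe the selection. Their other comparisons share arrays with that selection, so the p-values given for them there are not independent of it. Of 12 further MYC branch outputs, ANAC019 and ANAC055 could be named, both only through the selected list. They are NAC factors that MYC2 activates. ANAC019 read 73.8, 43.9 and 38.5 in wild type, 45.2, 56.2 and 58.0 in amp1-13 and 274, 335 and 255 in cyp78a5,7. ANAC055 read 29.1, 30.2 and 25.2 in wild type, 136, 87.2 and 66.4 in amp1-13 and 146, 158 and 70.4 in cyp78a5,7. The first was thus high in cyp78a5,7 alone, with a log2 fold change over wild type of 2.14 in cyp78a5,7 but -0.03 in amp1-13 (adjusted p = 0.952 for the latter) and 2.17 between the mutants (adjusted p = 0.00151). The second was high in both, with 1.56 in cyp78a5,7 and 1.23 in amp1-13 over wild type (adjusted p = 0.0301 for the latter) and 0.33 between the mutants (adjusted p = 0.568). With an array left out, the call of ANAC055 in amp1-13 failed in 4 of 9 fits, and it also failed under both other offsets.

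Of 20 further ERF branch genes, 8 could be named. In cyp78a5,7 over wild type, 0 were called higher and 2 lower (ERF15 and ERF104, both from the selected list), beside 4.37% and 2.64% of all probe sets. The median log2 fold change of the 8 genes was -0.31, beside -0.02 over all probe sets. It includes selected genes, PDF1.2B with its 1 bright wild type array and the dim PDF1.1 and THI2.1, so nothing is read from it. ERF15, an AP2/ERF factor, read 94.7, 45.1 and 90.2 in wild type, 57.7, 49.6 and 49.3 in amp1-13 and 24.7, 18.2 and 31.2 in cyp78a5,7. Its means had the order of ORA59, but the amp1-13 and wild type arrays overlapped. ERF15 differed by -0.47 in amp1-13 over wild type (adjusted p = 0.284) and by -0.70 between the mutants (adjusted p = 0.129). Its call in cyp78a5,7 over wild type failed in 3 of 9 fits with an array left out and with an offset of 64. ERF104, an ethylene response factor, read 275, 189 and 176 in wild type, 539, 401 and 446 in amp1-13 and 135, 65.3 and 72.0 in cyp78a5,7. It was higher in amp1-13 than in wild type by 1.1 (adjusted p = 0.0244) and lower in cyp78a5,7 than in amp1-13 by -2.23 (adjusted p = 0.00174), so unlike ORA59 it lay above wild type in amp1-13. That amp1-13 call failed in 4 of the 9 fits with an array left out and under both other offsets. OSM34, an osmotin gene, was lower in cyp78a5,7 than in amp1-13 by -1.31 (adjusted p = 0.0335), a call that failed in 5 of those 9 fits, under both other offsets and with the replicate block (adjusted p = 0.0667). Its log2 fold change over wild type was -0.50 in cyp78a5,7 (adjusted p = 0.313) and 0.80 in amp1-13 (adjusted p = 0.146). EIN3, the ethylene pathway factor upstream of ORA59, was higher in cyp78a5,7 than in wild type by 0.55 (adjusted p = 0.0193), under 2-fold. ERF4, a repressor of the ERF family, was higher than wild type in both mutants. The difference was 0.82 in cyp78a5,7, where it describes the selection, and 0.75 in amp1-13 (adjusted p = 0.0269). Both stayed under 2-fold, and the mutants differed by 0.07 (adjusted p = 0.882). PDF1.1, a defensin gene, and THI2.1, a thionin gene, read at most 7.06 and 6.46 on any array.

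Of 10 shared signalling components, 3 could be named. In amp1-13 against wild type limma called 0 of them, with 1 (JAV1) at an unadjusted p under 0.05, beside 27.5% of all probe sets. JAV1, a repressor of jasmonate defence that is degraded on wounding, read 81.9, 67.0 and 52.0 in wild type, 169.5, 141 and 137 in amp1-13 and 201, 201 and 195 in cyp78a5,7. Both mutants were above wild type, by 1.35 in cyp78a5,7 and by 0.95 in amp1-13, the latter with an adjusted p = 0.00775 and under 2-fold. JAV1 in amp1-13 passed 2-fold and was called on the values as deposited, with no offset, and without wild type replicate 1 or amp1-13 replicate 3 (1.0 to 1.11). JAM1, a bHLH factor that competes with MYC2 for target promoters, read 46.6, 51.5 and 35.9 in wild type, 87.4, 56.4 and 61.2 in amp1-13 and 279.9, 335 and 170.4 in cyp78a5,7. It was higher in cyp78a5,7 than in wild type by 2.1 and than in amp1-13 by 1.71 (adjusted p = 0.00362). The difference of amp1-13 from wild type was 0.38 (adjusted p = 0.345), with all amp1-13 arrays above wild type. BHLH14, a relative of the JAM factors, read at most 1.2 on any array.

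Of 6 relatives of the enzyme genes, 3 could be named, and limma called 0 in each comparison. At an unadjusted p under 0.05 were 1, 0 and 1, in cyp78a5,7 and in amp1-13 against wild type and between the mutants. The shares of all probe sets were 35.7%, 27.5% and 25.1%. SUR1, a C-S lyase of glucosinolate synthesis related to the aminotransferases, had the widest change, 0.99 in cyp78a5,7 over wild type, and it was higher in cyp78a5,7 than in amp1-13 by 0.74 (adjusted p = 0.0218). AT4G23590, the locus next to CORI3 and similar to it, read 4.75 to 13.7 over the 9 arrays.

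**Figure D4:**
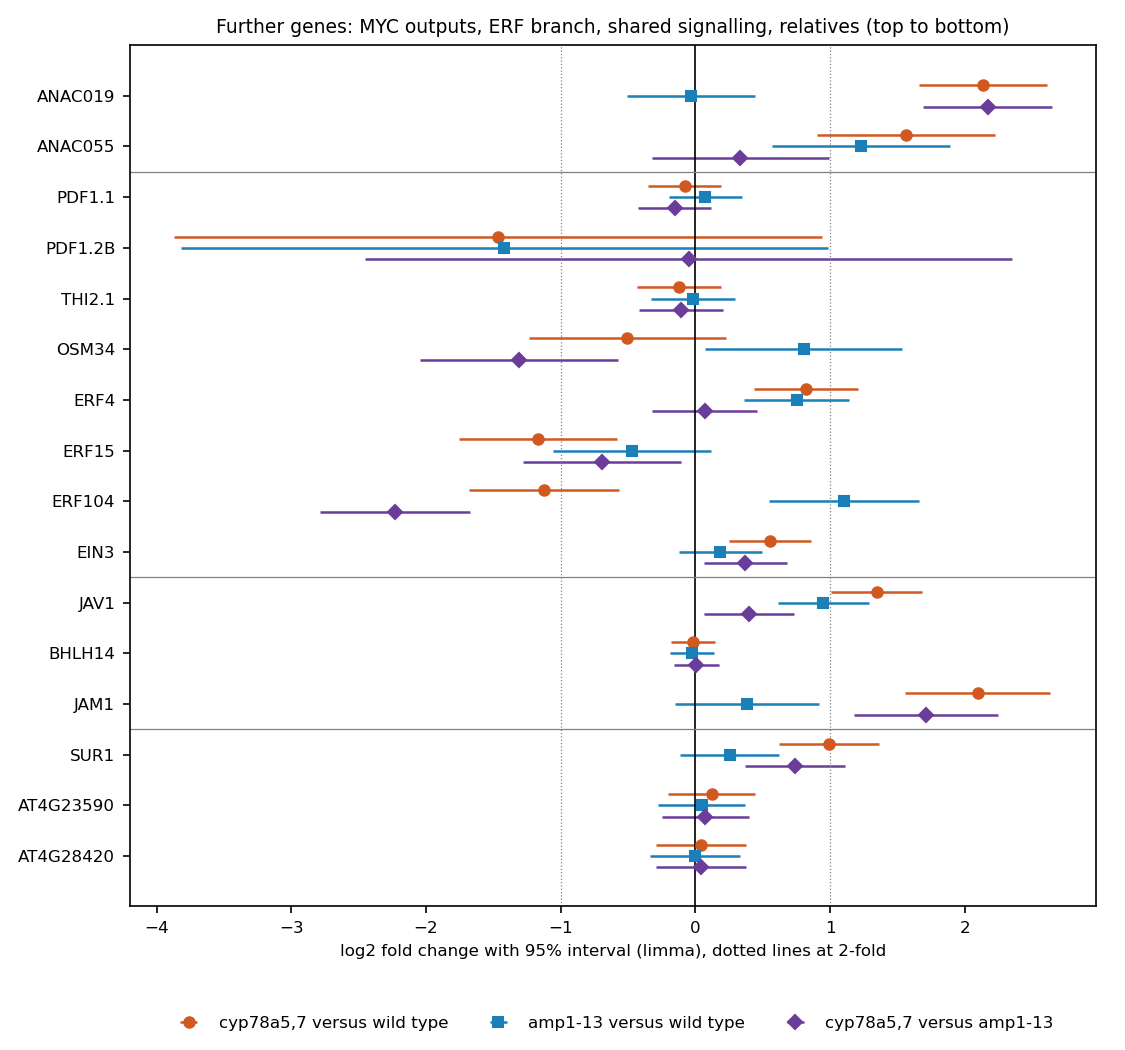
Log2 fold change (points) with its 95% interval (lines) of the 16 named genes of the 4 further lists in the 3 comparisons, with dotted lines at 2-fold in either direction. ANAC019, ANAC055, JAV1 and JAM1 lie above 2-fold in cyp78a5,7 over wild type, and ERF104 lies on opposite sides of 0 in the 2 mutants.

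The probe sets most like 4 of the genes were found by the Pearson correlation of normalized log2 signals over the 9 arrays, among probe sets annotated with exactly 1 gene. A shared order of the genotypes largely follows from this way of picking, so nothing is read from it. For MYC2 the nearest were AT5G11650 and GRX480, a glutaredoxin gene, both with a correlation of 0.983. GRX480 had mean signals of 25.3 in wild type, 126 in amp1-13 and 520 in cyp78a5,7. The next were AT5G58680 (0.980), AT4G39670 (0.978) and AT3G55840 (0.977), and all 5 had the order of MYC2.

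For TAT3 the nearest was AT5G05600 (0.995), with means of 60.6 in wild type, 104 in amp1-13 and 1688 in cyp78a5,7. It was followed by AT2G16900 (0.990), AT5G54170 (0.987), AT1G51820 (0.987) and AT3G51450 (0.985), each high in cyp78a5,7. For ORA59 the nearest were AT2G30620 (0.986), AT4G10330 (0.985), the histone H2B gene HTB11 (0.984), AT1G18170 (0.984) and AT3G22540 (0.984), all in the order of ORA59 with smaller log2 fold changes. AT3G22540 had the widest of these, -1.61 in cyp78a5,7 over wild type. The 5 nearest PDF1.2A were AT2G05880, AT5G16460, AT1G18410, AT5G14980 and AT1G72290 (0.994 to 0.987). All of them had genotype means under 2, so the likeness came from signals far below the offset.

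The seedling label was set against tissue markers. The leaf marker CA1, a carbonic anhydrase gene and the 1 of 4 leaf markers that could be named, averaged 2042 ± 209.7 in amp1-13, 1184 ± 92.6 in cyp78a5,7 and 377 ± 80.7 in wild type (SD, n = 3). Its log2 fold change was 1.66 in cyp78a5,7 and 2.45 in amp1-13 over wild type, so CA1 was highest in amp1-13. CA1 could be named only through the selected list, so its value in cyp78a5,7 over wild type describes the selection. A single gene chosen in this way does not measure the leaf share of the seedlings. The root marker PYK10 averaged 4913 in wild type, 4523 in amp1-13 and 4044 in cyp78a5,7 on the deposited scale. In the normalized fit PYK10 differed from wild type by 0.096 in cyp78a5,7 (adjusted p = 0.553) and by 0.087 in amp1-13 (adjusted p = 0.641). The root hair marker EXPA7 read 21.2 to 89.2 over all arrays (2 of 5 root markers named). The meristem marker CLV3 read 0.441 to 10.1 (1 of 4 named), and 0 of 3 seed markers could be named. Whether the CA1 difference bears on the values of the 8 genes was not tested. Array medians lay between 31.1 and 38.9, 34.5% to 38.3% of the probe sets on an array read under 16, and wild type replicates 1 and 3 had the highest 99th percentiles (2063 and 1997). TAT3 and PDF1.2A are the 2 of the 8 genes with a genotype mean under 16.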

How the data were processed

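Whole seedlings of 3 genotypes were profiled on ATH1 arrays, with 3 replicates each, grouped by the sample labels. The deposited table holds linear signal intensities. The authors computed these intensities with MAS5, whose version is not given in the sources used here, with each array scaled to a trimmed mean of about 100. RMA, which the paper names, needs probe-level data, and the raw arrays were not used here. Scaling does not align the arrays further, MAS5 noise is large in dim probe sets, and no detection calls were used.

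Of 22810 probe sets, 64 controls were left out and 22746 tested. An offset of 16 was added, which shrinks changes of dim probe sets, and log2 values were quantile normalized. Models with genotype as the only term were fitted to all 9 arrays with limma 3.58.1 in R 4.3.3 (6 residual and 2.69 prior degrees of freedom). Two-sided p-values were adjusted by Benjamini-Hochberg over every probe set. The fit was also run on simulated data with normal noise, and the outcome of that run is not reported here. Plots came from matplotlib 3.10.9 (Python 3.11.15). The precision is limited by 3 arrays a genotype.

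The annotation named 1 gene for 13513 probe sets and several for 503, and 819 more were named through the gene identifiers of the study's selected list. Of its values none were used. The members and lists were chosen with earlier results of these data known. Named genes were the 8 members, each listed gene called in any comparison (otherwise the one with the widest change) and the 5 most correlated probe sets of MYC2, TAT3, ORA59 and PDF1.2A. Other list genes named (ERF4, EIN3, PDF1.1, PDF1.2B, THI2.1, BHLH14, AT4G23590) were chosen after their values were seen. Promoters and proteins were not analysed here. The alternatives were other scalings and offsets, a filter on dim probe sets, fits of 2 genotypes, the replicate block, moderated variances with a trend, no fold limit and leaving out each array.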

Additional observations from a re-analysis of the deposited data

How the results depend on the processing

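In cyp78a5,7 against wild type, where 5 genes describe the selection, 5 of the 8 genes were called under most alternatives. The count was 4, without CORI3, when cyp78a5,7 replicate 3, wild type replicate 1 or wild type replicate 3 was left out. It was 6 with no fold limit, which adds MYC4. In amp1-13 against wild type the count of 1 (ORA59) became 0 with no offset and with an offset of 64 and was 0 to 1 over the fits that left out an array; ORA59 itself was -1.22 (adjusted p = 0.0570) with no offset and -0.78 with 64. In cyp78a5,7 against amp1-13 the count of 3 became 1 with no offset, where TAT3 was 4.33 (adjusted p = 0.0536), and 1 (without amp1-13 replicate 3) to 4 (without cyp78a5,7 replicate 3, where MYC2 was called at 1.24, adjusted p = 0.0355) with an array left out. Over all probe sets, 1596, 591 and 891 were called in cyp78a5,7 and in amp1-13 against wild type and between the mutants. An offset of 64 gave 774, 242 and 411, and no fold limit gave 5409, 2734 and 2643. Leaving out an array gave 326 (without wild type replicate 3) to 923 (without wild type replicate 2) in amp1-13 against wild type and 553 (without amp1-13 replicate 2) to 1270 (without cyp78a5,7 replicate 1) between the mutants. Some directions turned. In amp1-13 against wild type, MYC3 became 0.087 as deposited and 0.034 with arrays centred on the 75th percentile (-0.084 to 0.14 with an array left out), and ANAC019 became 0.053 as deposited (-0.17 to 0.22). With an array left out, CLH1 ranged from -0.12 to 0.18 and PDF1.2A from -2.10 to 0.0074 in that comparison, and MYC4 from -0.20 to 0.039 between the mutants. With the replicate block, 5, 1 and 3 of the 8 genes and 1586, 579 and 827 probe sets were called, and MYC2 reached an adjusted p of 0.0232 in amp1-13 against wild type and 0.0138 between the mutants, both under 2-fold. After the genotype means were removed, the correlation was -0.119 to 0.161 between arrays of 1 number and -0.174 to 0.247 between others. These ranges, over all probe sets, overlapped. They do not speak to single genes, and MYC2 was highest on replicate 1 in every genotype. The cause of the shifts between alternatives was not tested. The dim signals of TAT3 in wild type and of PDF1.2A limit their fold changes.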
